A study of Homo sapiens with 2 samples.

Results

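Extracellular and cell-surface proteolysis is carried out in large part by zinc metalloproteinases of the MMP, ADAM and ADAMTS families and is restrained by the TIMP inhibitors. They were followed here in C33-A, a human cell line established from a cervical carcinoma. The members were all probe sets that the platform annotation pairs with exactly 1 gene symbol, where that symbol is MMP, ADAM, ADAMTS or TIMP followed by a digit. This gave 163 of the 54675 probe sets on the array, or 72 of the 19775 genes with a single-symbol probe set. Of these, 66 belong to the families themselves, and the other 6 are antisense, opposite-strand or divergent genes named after a member. By where the product acts, the families held 16 secreted MMPs, 6 membrane-bound MMPs, 12 ADAMs that carry the zinc-binding catalytic motif, 6 ADAMs that lack it, 4 ADAM pseudogenes, 18 secreted ADAMTS enzymes and 4 secreted TIMPs.

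The series has 2 arrays, with 1 array per stable C33-A line. One line was transfected with the full-length human CA9 cDNA in pcDNA3.0. CA9 encodes carbonic anhydrase IX, a membrane enzyme of hypoxic tumours. The other line received the empty vector. Both lines were grown in RPMI with 10% serum at 5% CO2, and the labels do not say whether either is a single clone. There is no replicate, so differences describe these 2 arrays, no test of them is possible, and a line effect cannot be told apart from the spread between cultures or arrays. RNA was taken from whole cultures, so fewer expressing cells and less RNA per cell cannot be told apart either.

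MMPs cleave collagens, laminins and other matrix proteins. Most are secreted as inactive precursors, while the membrane-type MMPs are held at the cell surface. ADAMs are transmembrane proteins, and those with an active site cut other membrane proteins close to the membrane, which releases growth factors, cytokines and receptor ectodomains. ADAM17 is known to release the ectodomain of carbonic anhydrase IX itself. ADAMTS enzymes are secreted and process procollagens, proteoglycans and von Willebrand factor. TIMPs bind the active site of MMPs, and TIMP3 also inhibits several ADAMs and ADAMTS enzymes.

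The promoters shown next are those of members on both sides of the level at which a gene could be measured on these arrays. Of the 66 family genes, 36 had an entry in the RefSeq promoter table of GRCh38.p14. Each line gives the 120 bases before the annotated start, 5′ to 3′ on the strand of the gene. Capitals mark every CpG, the AP-1 site TGAGTCA (or TGACTCA, the same site on the other strand), and TATAA (or TTATA, its other strand) where it lies from 45 to 15 bases before the start. MMP7 (chr11:102530748-102530867, minus strand) and MMP10 (chr11:102780629-102780748, minus strand) could not be measured in either line. MMP15 (chr16:58025634-58025753, plus strand), ADAM10 (chr15:58749708-58749827, minus strand), ADAM17 (chr2:9555831-9555950, minus strand) and TIMP1 (chrX:47582316-47582435, plus strand) could.
MMP7: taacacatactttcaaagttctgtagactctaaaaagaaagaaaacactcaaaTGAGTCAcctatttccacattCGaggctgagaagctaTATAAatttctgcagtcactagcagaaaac
MMP10: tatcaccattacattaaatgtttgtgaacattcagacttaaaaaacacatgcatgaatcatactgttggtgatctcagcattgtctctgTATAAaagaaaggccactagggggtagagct
MMP15: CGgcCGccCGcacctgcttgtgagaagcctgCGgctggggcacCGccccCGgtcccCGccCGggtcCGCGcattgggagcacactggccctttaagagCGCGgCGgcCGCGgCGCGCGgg
ADAM10: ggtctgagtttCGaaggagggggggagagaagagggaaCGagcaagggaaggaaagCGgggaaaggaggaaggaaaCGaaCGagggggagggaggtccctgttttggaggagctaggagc
ADAM17: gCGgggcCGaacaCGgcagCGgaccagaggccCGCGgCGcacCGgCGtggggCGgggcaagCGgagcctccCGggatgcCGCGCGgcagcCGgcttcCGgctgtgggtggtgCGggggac
TIMP1: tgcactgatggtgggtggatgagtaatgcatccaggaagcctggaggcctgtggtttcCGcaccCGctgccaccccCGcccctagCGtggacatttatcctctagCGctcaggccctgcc

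Values are the authors' probe set intensities on a linear scale, and a difference is the log2 intensity with CA9 less that with the empty vector. A gene is represented by its brightest probe set (by mean log2). It counts as measurable where the higher of its 2 arrays lies above the floor of 40.8, the median of all non-control probe sets. The signal of a probe set also depends on its probes, so levels are compared between the lines and not between genes. On this rule 38 of the 72 members were measurable, from 70 probe sets above the floor, against 13823 of 19775 genes in all. Where 1 of the values lies at or under the floor, the difference is not exact and the fold against the floor is a lower bound; this was so for 3 of the 38, ADAM2, ADAM20 and ADAMTS12. The median difference over all measurable genes was -0.03, with 45.9% of them above 0 and 53.0% below. Log2 differences of probe sets of the same gene had a pooled SD of 0.31 over all genes with more than 1 probe set above the floor, and also of 0.31 over the 23 members of that kind. These probe sets share the RNA and the array and are not replicates.

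Secreted MMPs were for the most part not measurable in C33-A, with or without CA9. Of the 16, 11 lay at or below the floor on both arrays, and these include the collagenases MMP1, MMP8 and MMP13, the stromelysins MMP3 and MMP10, matrilysin MMP7 and the macrophage elastase MMP12. MMP1 had an intensity of 14.3 with CA9 and 12.5 with the empty vector. MMP3 had 12.8 and 14.4, and MMP7 had 25.8 and 24.6. No fold is given for these genes, since both values lie under the floor.

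The 5 measurable secreted MMPs differed little between the lines, with a median of 0.17 and a range from -0.32 to 0.39. MMP11, stromelysin-3, had an intensity of 169 with CA9 and 130 with the empty vector, a difference of 0.39, and its second probe set lay at 0.13 and another, with the vector line under the floor, was at least 1.46-fold higher. MMP9, gelatinase B, had 101 and 83.9, a difference of 0.27 in a single probe set. MMP2, gelatinase A, had 60.7 and 59.1, so the lines were close, and its difference of 0.04 turned to -0.03 once the intensity trend was removed. MMP19 had 87.3 and 77.8, a difference of 0.17. MMP28, epilysin, was the one measurable secreted MMP with a lower value in the CA9 line, at 207 against 259. That probe set, at -0.32, has a name ending in _x_at, which marks possible cross-hybridisation, and its other probe set above the floor lay at 0.17.

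All 5 measurable membrane-bound MMPs had a higher value in the CA9 line, by less than 1.5-fold each, beside 45.9% of all measurable genes. This direction held under each of the 3 other scalings. Without _x_at and _s_at probe sets MMP14 turned to -0.265, while MMP15 and MMP25 stayed above 0. MMP17 and MMP24 have no probe set of another kind, so their direction could not be checked in that way. With the probe sets of a gene averaged, MMP14 was at -0.0. The median of the 5 was 0.27. MMP17, which is anchored by glycosylphosphatidylinositol, had an intensity of 143 with CA9 and 98.4 with the empty vector, a difference of 0.54 in its only probe set. The name of that probe set ends in _s_at. MMP15, a transmembrane member, had 128 and 95.5, a difference of 0.42, and its second probe set lay at 0.54. MMP14, which activates the precursor of gelatinase A at the cell surface, had 129 and 107. Its 4 probe sets above the floor were at 0.27, -0.26, 0.02 and -0.03, so the gene had no shared direction. The one at 0.27, the brightest, has a name ending in _x_at. MMP25, the other member with a glycosylphosphatidylinositol anchor, had 60.2 and 53.1, with a second probe set at 0.39. MMP24 had 64.7 and 61.1, and its second probe set, with the vector line under the floor, was at least 1.21-fold higher. MMP16 lay below the floor on both arrays, at 24.9 and 28.2.

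**Figure D1:**
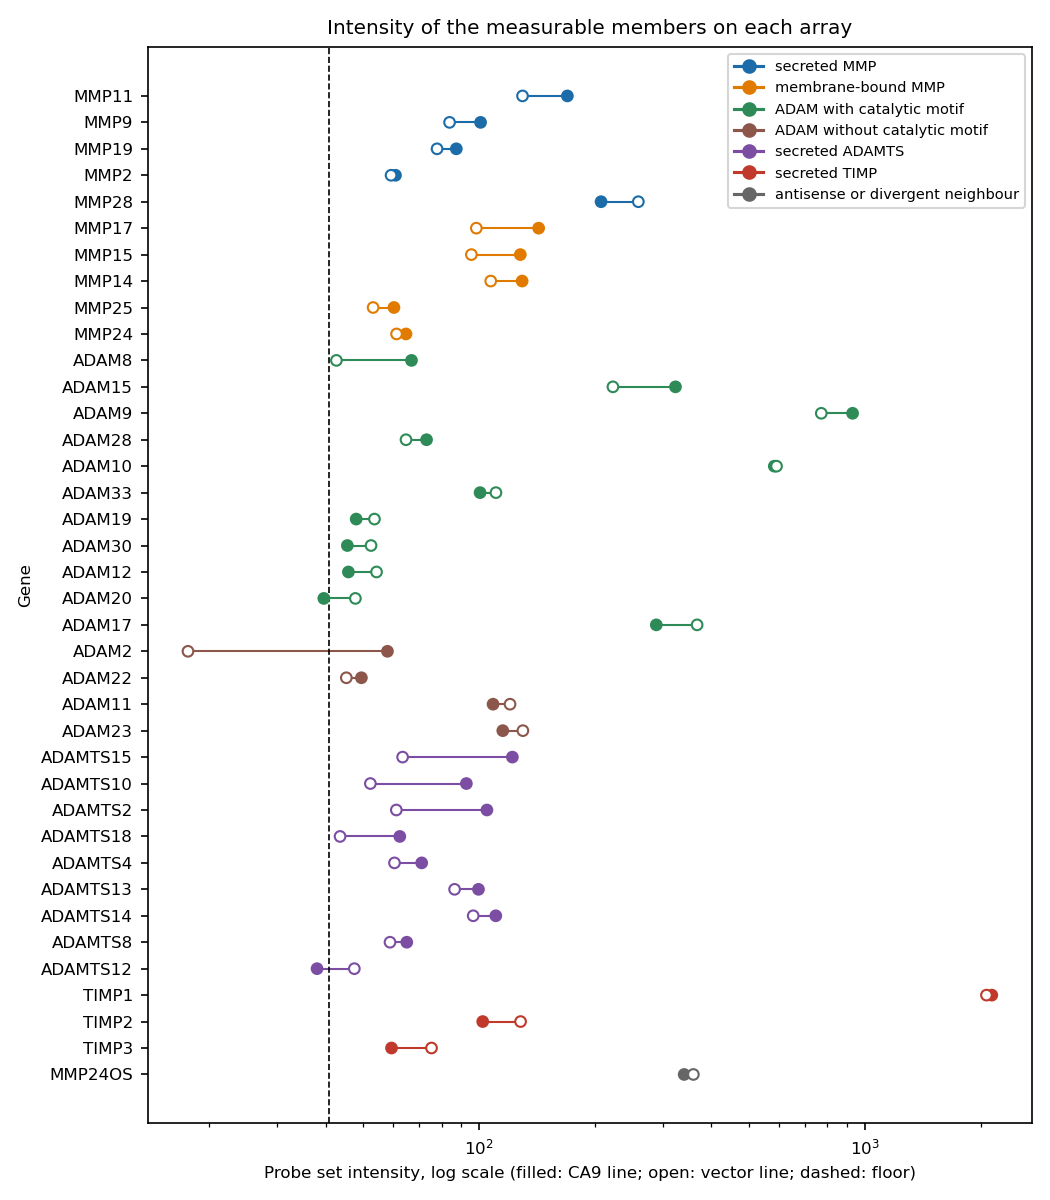
Probe set intensity (log axis) of the 38 measurable members, 1 row per gene, in the CA9 line (filled) and the vector line (open), coloured by class, with the floor of 40.8 dashed. The pair for ADAM2 lies on both sides of the floor, at 57.9 and 17.6, while the pairs for ADAM10, MMP2 and TIMP1 nearly coincide.

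Of the 12 ADAM sheddases 11 were measurable, beside 13823 of 19775 genes in all. Of the 11, 7 had a lower value in the CA9 line, beside 53.0% of all measurable genes. The median difference was -0.14, from -0.35 to 0.65, but it was 0.028, on the other side of 0, over the 7 genes that were measurable with the probe sets of a gene averaged. The class therefore had no settled direction. ADAM10, the main sheddase of Notch and of the prion protein, had an intensity of 582 with CA9 and 590 with the empty vector. This probe set had a difference of -0.02, which turned to 0.08 once the intensity trend was removed, and its 2 dimmer probe sets were at -0.46 and -0.54. ADAM17, which releases tumour necrosis factor and ligands of the EGF receptor, had 288 and 367, a difference of -0.35. Its other probe sets lay at -0.23 and -0.03, so all 3 were below 0.

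ADAM15 and ADAM8 had higher values in the CA9 line in every probe set above the floor. ADAM15, which carries an integrin-binding disintegrin domain, had an intensity of 323 with CA9 and 222 with the empty vector, a difference of 0.54, with 0.65 in the second probe set. ADAM8, best known from leukocytes, had 66.8 and 42.7, or 1.57-fold, with 0.52 in the second probe set. Both probe sets of ADAM8 have names ending in _s_at, which marks sets that may share probes with related transcripts. ADAM9 had 929 and 771, a difference of 0.27, while its second probe set above the floor was at -0.36, so its probe sets disagreed.

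The other measurable ADAMs with the motif were close to the floor or close between the lines. ADAM28 had intensities of 73.1 with CA9 and 64.7 with the empty vector, a difference of 0.18. ADAM12, which is active in muscle and placenta, had 45.9 and 54.2, a difference of -0.24. ADAM30 and ADAM20, both mainly known from testis, were at -0.20 and -0.27. ADAM20 was at 39.6 in the CA9 line, under the floor, so it was at least 1.17-fold lower there. ADAM33 and ADAM19 were at -0.14 and -0.16, and ADAM21 was not measurable. ADAM12, ADAM20, ADAM28, ADAM30 and ADAM33 each had 1 probe set above the floor, and their others lay under it on both arrays. That of ADAM33 has a name ending in _x_at.

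ADAMs without the motif act in adhesion rather than as proteases, and 4 of 6 were measurable. ADAM2, a sperm surface protein that takes part in binding to the egg, was the only member whose signals had a ratio of 2 or more between the lines. Its single probe set had an intensity of 57.9 with CA9 and 17.6 with the empty vector, a difference of 1.72. The vector line lies under the floor, so the data support no more than a level at least 1.42-fold higher in the CA9 line. By the ratio of signals 1 of 38 measurable members was higher by 2-fold, beside 0.651% of all measurable genes, and 0 of 38 were lower, beside 0.694%. Those shares correspond to 90 and 96 genes, and to 69 and 123 once both arrays were given the same median. ADAM2 counted as measurable only through the array on which it is high, so nothing is read from the count of 1. With values under the floor set to the floor, 0 of 38 members were 2-fold higher or lower, beside 0.492% and 0.543% of all measurable genes.

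The other measurable members without the motif are known from neurons. ADAM22, a receptor of the synaptic protein LGI1, had 49.5 with CA9 and 45.3 with the empty vector. Its second probe set lay at 0.05, and another, with the CA9 line under the floor, was at least 1.16-fold lower. ADAM23 had 115 and 130, a difference of -0.17, and ADAM11 had 109 and 120, with probe sets at -0.15 and 0.23. None of the 4 ADAM pseudogenes was measurable.

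Of 18 secreted ADAMTS genes 9 were measurable. Of the 9, 3 were at least 1.5-fold higher in the CA9 line with both values above the floor, beside 5.29% of all measurable genes. A higher value in the CA9 line was found in 8 of the 9, beside 45.9%, and the median difference was 0.23. But 8 of the 9 had a geometric mean intensity under 100. Among all measurable genes under 100, 9.05% were at least 1.5-fold higher and 59.9% were above 0. Of these 8 ADAMTS genes, 7 were above 0. ADAMTS15, a proteoglycan-cleaving enzyme, had an intensity of 122 with CA9 and 63.4 with the empty vector, a difference of 0.94 and short of 2-fold. Its second probe set was below the floor on both arrays and gives no difference. ADAMTS10, which associates with fibrillin microfibrils, had 92.7 and 52.3, a difference of 0.83, and its second probe set was at 0.03. The higher value of ADAMTS10 was thus seen in 1 of its 2 probe sets above the floor, and that of ADAMTS15 rests on a single one.

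ADAMTS2 removes the amino-terminal propeptide of fibrillar procollagens. It had an intensity of 105 with CA9 and 61.0 with the empty vector, a difference of 0.78, and its second probe set above the floor lay at 0.43. ADAMTS14, a procollagen propeptidase of the same group, had 110 and 96.6, a difference of 0.19 or less than the spread between probe sets. ADAMTS3, also of that group, was not measurable. ADAMTS18 had 62.3 and 43.6, the latter close to the floor, a difference of 0.51. Its other probe set was below the floor on both arrays and gives no difference. ADAMTS13, which cleaves von Willebrand factor, had 99.7 and 86.4, a difference of 0.21. ADAMTS12 gave no direction. Its brightest probe set had 38.0 with CA9, under the floor, and 47.5 with the empty vector, or at least 1.16-fold lower. Its second had 46.8 with CA9 and 35.3, under the floor, with the empty vector, or at least 1.15-fold higher.

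Of the proteoglycan-cleaving ADAMTS4, ADAMTS5 and ADAMTS8, ADAMTS5 was not measurable. ADAMTS4 had an intensity of 71.0 with CA9 and 60.4 with the empty vector. ADAMTS8, chosen after its values were seen because it lies next to ADAMTS15, had 65.0 and 58.8 in its brightest probe set, a difference of 0.14. A second probe set of ADAMTS8 was at least 1.599-fold higher, with the vector line under the floor.

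**Figure D2:**
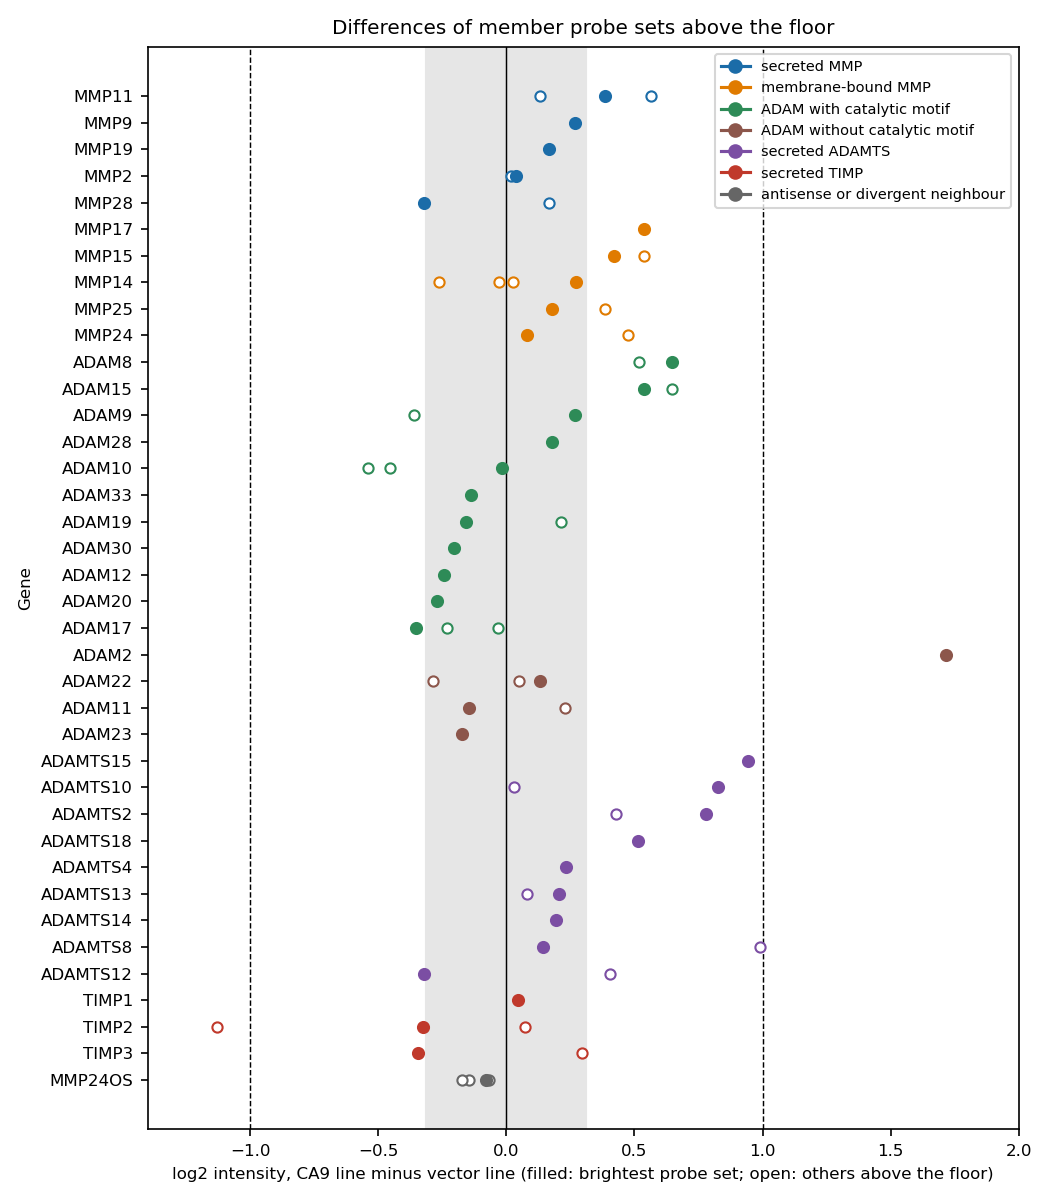
Log2 intensity of the CA9 line minus the vector line for each of the 70 member probe sets above the floor, 1 row per gene, with the brightest probe set filled and the others open. Dashed lines mark 2-fold and the grey band is the pooled SD of 0.31 between probe sets of a gene; ADAM2 at 1.72, whose vector value is under the floor, and a second probe set of TIMP2 at -1.13 lie beyond 2-fold.

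With values under the floor set to the floor, 4 of 38 measurable members were at least 1.5-fold higher in the CA9 line (ADAM8, ADAMTS2, ADAMTS10 and ADAMTS15), beside 4.15% of all measurable genes, and 0 of 38 were lower, beside 4.30%. By the ratio of signals ADAM2 joined them, for 5 of 38 beside 5.29%, with 0 lower beside 4.74%. All 4, and ADAM2, had a geometric mean intensity under 100. Dim genes leaned upward on the CA9 array as a whole. The median difference of all measurable genes was 0.10 below a geometric mean of 100 and -0.10 from 100 upward. Among the 22 dim members 4 were at least 1.5-fold higher with values under the floor set to the floor, or 18.2%, beside 6.26% of all dim measurable genes, and 0 were lower, beside 3.78%. By the ratio of signals, with ADAM2, 5 of the 22 were higher, or 22.7%, beside 9.05%, and 0 were lower, beside 4.84%. The dim members had a median of 0.17 and the 16 brighter members one of 0.01. Over all measurable members 24 of 38 differences were above 0, beside 45.9% of all measurable genes. Among the dim members 16 of 22 were above 0, beside 59.9% of all dim measurable genes. Among the brighter members 8 of 16 were, beside 36.3% of all brighter ones. With the intensity trend removed, the members' median was 0.11 in place of 0.16, and that of the ADAMTS class was 0.22 in place of 0.23. The part of the intensity trend in each gene's difference was not tested.

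TIMPs differed from one another. TIMP1, a broad inhibitor of MMPs, had an intensity of 2133 with CA9 and 2066 with the empty vector, so the lines were nearly equal. Its difference of 0.05 turned to -0.02 once both arrays were given the same median. TIMP2, which inhibits MMPs and also assists the activation of gelatinase A on MMP14, had 102 and 128 in its brightest probe set, a difference of -0.33. Its second probe set had 73.4 and 161, a difference of -1.13 or 2.19-fold lower in the CA9 line, and the remaining one had 105 and 100, a difference of 0.07. The 3 probe sets of TIMP2 thus ranged from more than 2-fold lower to slightly higher, and the one at -1.13 is of the kind ending in _s_at. TIMP3, which is bound to the matrix, had 59.3 and 75.3, a difference of -0.34, while its second probe set, with the vector line under the floor, was at least 1.11-fold higher. TIMP4 lay below the floor, at 32.9 and 31.0.

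Of the antisense, opposite-strand and divergent genes, only MMP24OS was measurable. It had 340 with CA9 and 359 with the empty vector, and all 4 of its probe sets lay between -0.18 and -0.07. Removing the intensity trend turned its difference of -0.08 to 0.03.

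Measurable members and the others also differed in position and promoter, which the choice by symbol did not use. In the order of protein-coding genes of GRCh38.p14, 9 secreted MMPs (MMP7, MMP20, MMP27, MMP8, MMP10, MMP1, MMP3, MMP12 and MMP13) follow one another on chromosome 11 with no other gene between them. None of the 9 was measurable in either line. ADAMTS8 and ADAMTS15 are also neighbours on chromosome 11, and both were measurable. ADAMTS1 and ADAMTS5, neighbours on chromosome 21, were not. ADAM9, ADAM32, ADAM18 and ADAM2 form a run on chromosome 8 in which ADAM32 and ADAM18 lay under the floor on both arrays, at 11.7 and 11.9 for ADAM32 and at 17.9 and 17.0 for ADAM18. The high value of ADAM2 in the CA9 line was thus not shared by its protein-coding neighbour in the family.

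**Figure D3:**
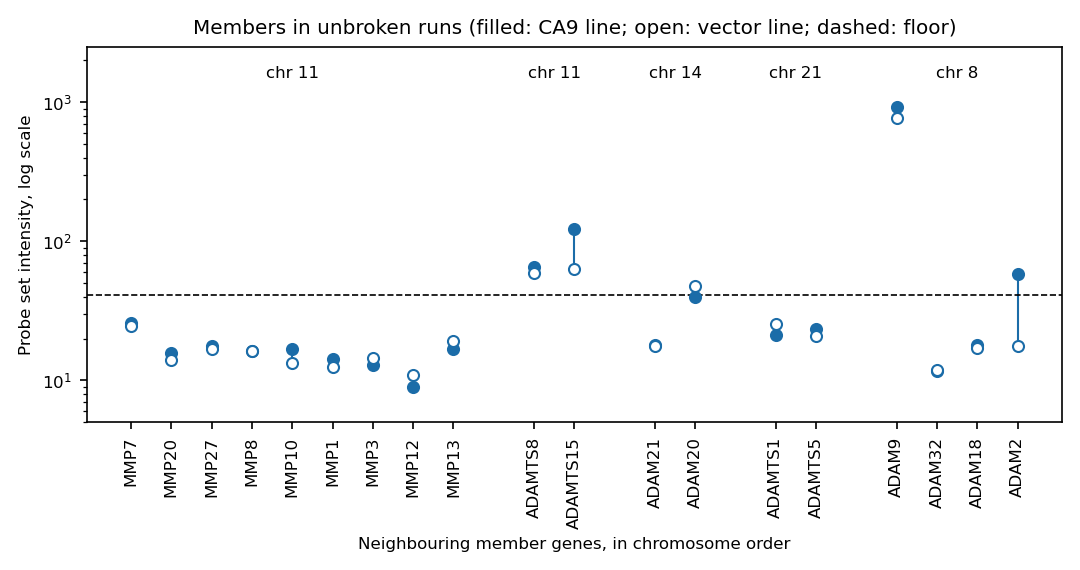
Probe set intensity (log axis) in the CA9 line (filled) and the vector line (open) of members that follow one another on a chromosome with no other protein-coding gene between, with the floor of 40.8 dashed. All 9 MMP genes of the first run on chromosome 11 lie below the floor in both lines, and ADAM2, last in the run on chromosome 8, lies above it only in the CA9 line.

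Promoters of the 22 measurable family genes with an entry had a median GC content of 73.6% over the 250 bases before the start, against 47.0% in the 14 that were not measurable. Over all genes on the array these medians were 64.4% and 54.8%. The ratio of observed to expected CpG had a median of 0.82 in the first group and 0.35 in the second. All genes on the array had the same order in this ratio, at 0.80 for measurable genes and 0.45 for the rest. Of 21 family promoters with a ratio of at least 0.6, 17 belonged to measurable genes, or 81.0%, and of 15 below it, 5 did, or 33.3%. Over all genes those shares were 82.1% and 52.4%. ADAM17, with a ratio of 0.88, and ADAM10, with 1.02, are examples of CpG-rich promoters. MMP8 and MMP26 have no CpG in these 250 bases. Measurable exceptions with a ratio below 0.6 were ADAM20 at 0.00, ADAMTS13 at 0.26, MMP14 at 0.35, TIMP1 at 0.48 and ADAM19 at 0.59. CpG-rich promoters of genes that were not measurable were ADAMTS3 at 0.86, ADAMTS17 at 0.78, ADAMTS20 at 0.78 and ADAMTS19 at 0.64. By class, 1 of 8 secreted MMP promoters and 9 of 11 ADAMTS promoters had a ratio of at least 0.6. The part of class in the difference between measurable members and the others was not tested.

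**Figure D4:**
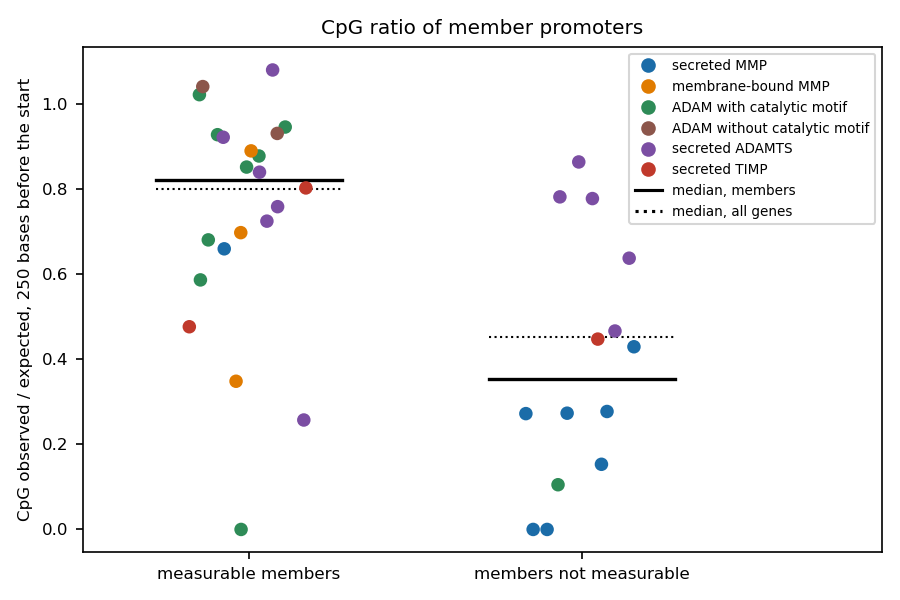
Ratio of observed to expected CpG in the 250 bases before the start for 22 measurable members and 14 members that were not measurable, 1 point per gene, coloured by class. Solid lines are the members' medians, 0.82 and 0.35, and dotted lines those of all genes on the array, 0.80 and 0.45.

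The AP-1 site printed above in MMP7, from 67 to 61 bases before the start, was the only one among the 36 family promoters, or 2.78%, against 4.16% of all promoters in the table. TATAA on either strand was found in 4 of the 36, or 11.1%, against 5.36% of all. These were MMP7, MMP10, MMP11 and MMP26, all secreted MMPs, and in MMP26 the same bases match on both strands. Promoters of MMP1 and MMP3 were not analysed here. A match of letters is a description and not evidence of binding.

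Factors that bind AP-1 and ETS sites of MMP promoters were listed as partners, together with RUNX2, which is of neither kind. Of 15, 13 were measurable and none was at least 2-fold apart, beside 0.651% of all measurable genes higher and 0.694% lower. In their brightest probe sets 11 of the 13 had a lower value in the CA9 line, beside 53.0% of all measurable genes. The median of the 13 was -0.21. Other probe sets of 6 of the 11 went the other way. JUN had an intensity of 160 with CA9 and 284 with the empty vector, a difference of -0.83, but its second probe set lay at 0.24. FOSL2 had 113 and 174, a difference of -0.62, and its other probe sets ran from -0.58 to 0.14. JUND had 624 and 640, a difference of -0.04, while its second probe set was at 0.74 and another, with the vector line under the floor, was at least 1.62-fold higher. ETV5 was at -0.21 with others at 0.40, 0.595 and -0.01, ETV1 at -0.14 with others from -0.26 to 0.28, and RUNX2 at -0.20 with another at 0.45.

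Among 11 measurable activators and surface regulators of MMPs, 1 was at least 2-fold higher and none lower, beside 0.651% and 0.694% of all measurable genes, with a median of 0.13. The gene was TFPI2, a secreted Kunitz-type inhibitor of plasmin, which activates MMP precursors. It had an intensity of 1514 with CA9 and 388 with the empty vector, a difference of 1.96. PLAU, the urokinase that generates plasmin, had 51.6 with CA9 and 39.2, under the floor, with the empty vector. RECK, a membrane-anchored MMP inhibitor, was at -0.19, and BSG, which induces MMPs in neighbouring cells, at 0.26. FURIN, which removes the propeptide of membrane-type MMPs and ADAMs, had the same intensity of 133 on both arrays.

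Partners in the trafficking of ADAM10 and ADAM17, to the surface or from it, had no member 2-fold apart among 13 measurable genes. Of all measurable genes, 0.651% were 2-fold higher and 0.694% lower. In their brightest probe sets 4 of the 13 partners were above 0, beside 45.9% of all measurable genes, with a median of -0.20. Of the 9 partners below 0, 4 had another probe set above 0. TSPAN5, a tetraspanin that carries ADAM10, had an intensity of 66.9 with CA9 and 130 with the empty vector, a difference of -0.96. Its other probe sets lay at -0.17 and -0.40, so all were below 0. AP2A1, an adaptor subunit of endocytosis, was at 0.59, with other probe sets at 0.15 and 1.32 and another, with the CA9 line under the floor, at least 1.19-fold lower. Of the iRhoms that move ADAM17 through the secretory pathway, RHBDF2 was at 0.24 and RHBDF1 at -0.31, with a second probe set of RHBDF1 at 0.67.

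Of 21 measurable membrane proteins that ADAMs shed, PRNP, the prion protein, was at least 2-fold lower and none was higher, beside 0.694% and 0.651% of all measurable genes, and the median was -0.02. PRNP had an intensity of 146 with CA9 and 304 with the empty vector, a difference of -1.05, with a second probe set at -0.21. CXCL16, a transmembrane chemokine, had 73.7 and 147, a difference of -0.996 that lies just short of 2-fold. Of 23 measurable matrix substrates, THBS1 and COL4A1 were at least 2-fold lower and none was higher, beside the same shares, and the median was 0.00. THBS1, thrombospondin, had 119 and 376, and its other probe sets with both values above the floor lay at -2.02 and -1.73, and the remaining one, with the CA9 line under the floor, was at least 1.25-fold lower. COL4A1 had 102 and 206, with a second probe set at -0.02.

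The labels describe the cells as epithelial and from the cervix. Of 8 epithelial markers with a probe set, 6 were measurable, but EPCAM and CDH1 lay below the floor on both arrays. The 6 had a median difference of 0.35, and 4 of them were above 0, beside 45.9% of all measurable genes. KRT8 was at 0.57, KRT18 at 0.52 and KRT14 at 0.63, KRT19 and KRT5 had 1 array under the floor, and CDKN2A, often abundant in cervical carcinoma lines, had 2659 with CA9 and 2739 with the empty vector. Sums over the same probe sets on each array are compared between the lines only. They were 3034 with CA9 and 3026 with the empty vector for the 8 epithelial markers. Most of both epithelial sums came from CDKN2A, so they say little of the other epithelial markers. The sums were 3119 and 2852 for the 8 fibroblast markers, of which LUM and FAP were below the floor. Most of both fibroblast sums came from COL3A1, whose probe sets lay on both sides of 0. The 6 measurable fibroblast markers had a median difference of 0.14. The 4 blood cell markers summed to 131 and 144, and the 4 endothelial markers to 181 and 152. No marker was at least 2-fold apart. The part of epithelial state or of other cell types in the members' differences was not tested.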

How the data were processed

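Total RNA of the CA9 line and of the vector line was hybridised to 1 Affymetrix array each. The deposited values are intensities that the authors obtained by RMA, per the submitters' processing notes, with no version or settings given in the sources used here. They run from 6.79 to 17091, so they were read as linear and put on log2 without a pseudocount. The arrays had medians of 41.8 (CA9) and 40.1 (vector).

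Symbols came from the platform annotation, and the Entrez identifiers of all 72 members matched the RefSeq table of GRCh38.p14. The role classes are textbook assignments. The members, classes and lists were chosen with earlier results of these data known, and the CpG cut of 0.6, the split at an intensity of 100 and the motifs were chosen after values were seen. Named genes were all members at least 2-fold apart, all TIMPs, all measurable MMPs, the 4 brightest and the 4 farthest from 0 in each direction of every other class, members whose probe sets above the floor lie on both sides of 0 with 1 of them at least 1.5-fold apart, and of each of 5 partner lists the called genes and the 2 farthest from 0; others were chosen after their values were seen.

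Alternatives changed the scaling (medians set equal, quantile, lowess with a fraction of 0.3), the probe set rule, the floor, a pseudocount of 16 and the fold; setting values under the floor to the floor was added after the data were seen. The number of arrays limits the precision. Python 3.11.15, numpy 2.4.6, pandas 2.3.3, statsmodels 0.14.6 and matplotlib 3.10.9 were used.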

Additional observations from a re-analysis of the deposited data

Results flagged for a closer look

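Spike-ins for hybridisation, bacterial RNAs outside every comparison of the members, gave a stronger signal with the CA9 sample, by a median log2 difference of 0.41, and 17 of their 18 probe sets were above 0. The 3′ minus 5′ log2 signal of ACTB was 0.67 for the CA9 sample and 0.73 for the vector sample. Their part in the members' differences was not tested.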

How the results depend on the processing

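No paired analysis was possible because each line has 1 array, and for the same reason no array could be left out. By the ratio of signals ADAM2 was the only member 2-fold higher under 7 of 10 alternatives, though its vector value lies under the floor. ADAM2 has a single probe set, ending in neither _x_at nor _s_at. Averaging probe sets, leaving out those kinds or removing the floor could therefore not change its 1.72, and nothing is read from the 7. The count was 0 with values under the floor set to the floor, where ADAM2 had 0.50, and 0 with the floor at the 75th percentile, an intensity of 105, and 5 members were at least 1.5-fold higher. No member was 2-fold lower under any of the 10. ADAM2 had a difference of 1.14 with a pseudocount of 16. The median over measurable members was 0.16, and it was 0.094 with array medians set equal, 0.097 after quantile normalization, 0.095 without _x_at and _s_at probe sets, 0.089 with no floor and 0.046 with the higher floor. With the probe sets of a gene averaged, the ADAMs with the catalytic motif had a median of 0.028 over 7 genes, and those without it one of 0.88 over 2 genes. With the higher floor the medians were 0.42 for 3 membrane-bound MMPs, -0.019 for 5 ADAMs with the motif, 0.57 for 2 ADAMTS genes and -0.14 for 2 TIMPs; fewer genes entered each. The TIMP median was also -0.14 without _x_at and _s_at probe sets and with no floor. Of 35 named members, 24 kept their sign in every alternative that gave a value. The others were ADAM9, ADAM10, ADAM11, ADAM22, ADAMTS12, MMP2, MMP14, MMP24OS, MMP28, TIMP1 and TIMP3. The 24 include TIMP4, which was at 0.00 with values under the floor set to the floor. Removing or raising the floor leaves the difference of each gene as it is, so neither could change a sign. A pseudocount cannot reverse a sign, and setting values under the floor to the floor can only keep it or bring it to 0. For genes with 1 probe set, neither probe set rule could change it. The count of 24 thus rests on the scalings and, for the other genes, on the probe set rules. The cause of the changes between alternatives was not tested.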
